A study of Xenopus laevis with 115 samples.

Results

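The subject is a set of 150 frog transcripts that were present in early ectoderm in 1 experiment of a study and near absent in another. They were chosen from 70042 mRNA targets among the 72076 target sequences of the files. Levels were read as CPM, the deposited expected count of a transcript scaled so that every library has the same total, and compared as log2(CPM + 0.5). For ectoderm of fertilised embryos and for ectoderm of control nuclear-transfer embryos, the median over libraries was taken in each of 3 experiments. A transcript qualified when the same experiment was highest and the same experiment was lowest in both groups, with a lowest median under 1 CPM and a highest median of at least 3 CPM in both. In all 155 transcripts qualified, and the 150 with the largest difference were kept, ranked by the smaller of their ranges in the 2 groups. The last inside this limit were XBmRNA54879 at a smaller range of 1.75, XBmRNA1118 at 1.75 and XBmRNA7602 at 1.73. The first outside were XBmRNA5553 at 1.65, XBmRNA15656 at 1.57 and XBmRNA39184 at 1.49. Because the values of fertilised and control nuclear-transfer ectoderm made the selection, the differences between experiments in these groups are described below and not tested.

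Ectoderm is the outer layer of the early embryo and gives rise to skin and the nervous system, while endoderm gives rise to the gut and its glands. A gastrula holds RNA that the egg stored before fertilisation together with RNA made from the embryo's own genes, which in frogs become active at the blastula stage. In nuclear transfer (NT) an egg receives a nucleus taken from a donor cell, and the embryo that forms starts from the RNA of that egg. Xenopus laevis carries a duplicated genome, so that many genes have near-identical partner copies between which reads can be split.

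The study asked whether inhibitors of the acetyltransferases p300 and CBP change the outcome of nuclear transfer. All animals were wild-type, and the strain is not given in the labels. Fertilised embryos were kept from gastrula stage 12 to neurula stage 18 in 40 µM SGC-CBP30 (CBP30, which blocks the bromodomains of CBP and p300) or in its solvent DMSO, and their endoderm supplied the donor nuclei. Ectoderm of stage 11 embryos was sequenced from fertilised embryos in 4, 3 and 4 libraries of experiments 1, 2 and 3, from NT embryos of DMSO donors in 4, 3 and 5, and from NT embryos of CBP30 donors in 3, 5 and 3. Stage 18 donor endoderm gave 2, 2 and 2 DMSO libraries and 2, 2 and 1 CBP30 libraries. A second series with the inhibitor A-485 at 30 µM, of which 40 libraries were read, has experiments of its own, also numbered 1 to 3. The experiment is the number in the sample titles. The labels do not say whether embryos of an experiment shared parents, a date or a sequencing run, nor whether a library is 1 embryo or a pool. These sources cannot be told apart from the experiment, and the p-values measure the spread between libraries, which may be technical.

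Library totals ran from 10352221 to 24923622 counts, so 1 CPM stood for 10.4 to 24.9 counts. In ectoderm the median total was 15548904 in experiment 1, 17596966 in experiment 2 and 20043917 in experiment 3. Whether depth has a part in the results was not tested. No library of a group and experiment repeated another within counting noise, since the lowest chi-square per degree of freedom between a pair was 12.6. The files do not pair transcript identifiers with gene names. The transcripts are therefore given by identifier without a gene role, at most a few per class, and the tissue labels could not be checked against marker genes. In bulk tissue, fewer cells of a type and less RNA per cell cannot be told apart.

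The 150 transcripts fell into all 6 possible orders of experiments. Highest in experiment 1 and lowest in experiment 2 were 28 transcripts, and highest in 1 and lowest in 3 were 17. Highest in 2 and lowest in 1 were 34, and highest in 2 and lowest in 3 were 19. Highest in 3 and lowest in 1 were 30, and highest in 3 and lowest in 2 were 22. The middle and lowest experiment had equal medians for 9 transcripts in fertilised ectoderm and for 11 in DMSO NT ectoderm. A tie was given to the lower experiment number, so the lowest experiment of these transcripts is in part set by the numbering. No experiment was low for the whole set: experiment 1 was the highest for 45 transcripts and the lowest for 64, experiment 2 for 53 and 50, and experiment 3 for 52 and 36. The summed level of the 150 transcripts in an ectoderm library ran from 515 to 637 CPM in experiment 1, from 523 to 825 in experiment 2 and from 489 to 566 in experiment 3. The 3 ranges overlapped.

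**Figure D1:**
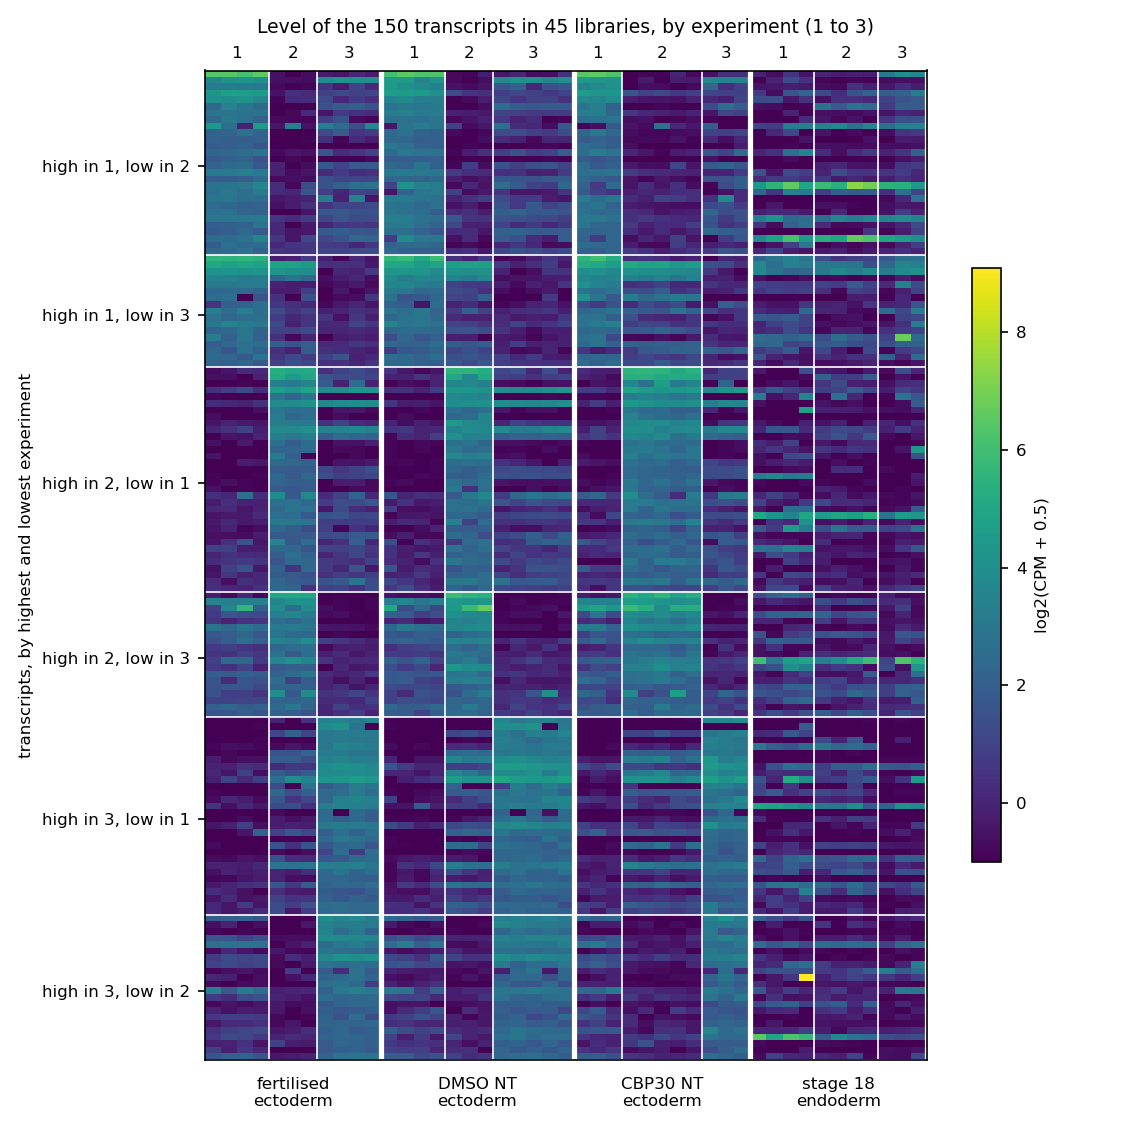
Level of each of the 150 transcripts (rows, grouped by highest and lowest experiment) in each of 45 libraries (columns, grouped by tissue and experiment 1 to 3), as colour on a log2(CPM + 0.5) scale. The bright block of each class sits in the same experiment in fertilised, DMSO NT and CBP30 NT ectoderm and is not repeated in stage 18 endoderm.

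In fertilised ectoderm the median transcript stood at 5.45 CPM in its highest experiment and 0.262 CPM in its lowest. In DMSO NT ectoderm these levels were 5.95 and 0.269 CPM. The highest minus the lowest experiment had a median of 3.06 on the log2(CPM + 0.5) scale in fertilised ectoderm, from 1.75 to 7.11, and of 3.17 in DMSO NT ectoderm, from 1.73 to 6.97. The libraries of the 2 experiments did not overlap for 140 transcripts in fertilised ectoderm and for 142 in DMSO NT ectoderm. Among the 7825 tested targets of the series with the same order in both groups, 58.7% and 48.6% did not overlap. These counts follow from the selection.

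CBP30 NT ectoderm took no part in the selection. Its median transcript stood at 5.82 CPM in the experiment that was highest in the other groups and at 0.319 CPM in the one that was lowest. The difference had a median of 2.94 on the log2(CPM + 0.5) scale, with quartiles of 2.32 and 3.74, against a median SD of 0.29 between libraries of an experiment. It was above 0 for 146 of the 150 transcripts and above 1 for 138. Over the 7825 tested targets with the same order in fertilised and DMSO NT ectoderm, chosen with no limit on level, the median difference was 0.43, and 87.3% were above 0 and 18.0% above 1. The highest experiment was the same for 141 of the 150 and the lowest for 132. Libraries of the 2 experiments did not overlap for 141 transcripts in CBP30 NT ectoderm, where 43.2% of those 7825 targets did not. In all 3 ectoderm groups 134 transcripts did not overlap, against 26.3% of those targets. Fertilised and DMSO NT ectoderm, which made the selection, enter this last count, so it is in part set by the rule.

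In the test across all 27668 targets that passed a filter on mean level (edgeR's quasi-likelihood test with Benjamini-Hochberg adjustment, adjusted p under 0.05), 136 of the 150 were called in CBP30 NT ectoderm in the direction seen in the other groups. All 150 passed that filter. Another 13 were not called, and 1 was called in the opposite direction. Called were 24 of 28 transcripts of the class highest in 1 and lowest in 2, where 4.13% of all targets tested were called higher in experiment 1. For highest in 1 and lowest in 3, 15 of 17 were called, against 3.85% of all targets. For highest in 2 and lowest in 1, 31 of 34 were called, against 3.96%. For highest in 2 and lowest in 3, 18 of 19 were called, against 5.71%. For highest in 3 and lowest in 1, 28 of 30 were called, against 3.11%, and for highest in 3 and lowest in 2, 20 of 22, against 5.19%. In every class the share called was above that of all targets. The set was chosen for large differences in the other ectoderm groups, while the targets tested lie at any level and in any order. The share called among targets of the same order was not computed.

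At the limits of the rule, the switch was seen in every CBP30 NT library of the 2 experiments for 85 of the 150 transcripts. No such share was computed for other targets. In CBP30 NT ectoderm 121 transcripts reached 3 CPM in every library of the highest experiment, 102 stayed under 1 CPM in every library of the lowest, and 85 did both. No count at all was found in any ectoderm library of the lowest experiment for 4 transcripts. The third experiment could lie at either end. In fertilised and DMSO NT ectoderm, 46 transcripts were under 1 CPM in 2 experiments and so present in 1, 23 were at 3 CPM or more in 2 and so missing from 1, and 81 lay between. In CBP30 NT ectoderm the middle experiment was again under 1 CPM for 43 of the 46 and again at 3 CPM or more for 22 of the 23. Shares of other targets were not computed for these counts, so they are not read as particular to the set.

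XBmRNA24334, highest in experiment 1 and lowest in 2, showed the largest range. In fertilised ectoderm it stood at 86, 88.3, 69.3 and 93.4 CPM in experiment 1, at 0.193, 0 and 0.134 in experiment 2, and at 0.346, 0.249, 0.629 and 0.384 in experiment 3. In DMSO NT ectoderm it stood at 64.8, 93.2, 73.3 and 76.1 CPM in experiment 1, at 0.0976, 0.0588 and 0.366 in experiment 2, and at 0.284, 0.569, 0.145, 0.143 and 0.907 in experiment 3. CBP30 NT ectoderm gave 86.5, 96.7 and 75.9 CPM in experiment 1, at 0, 0.0501, 0.0441, 0.532 and 0.093 in experiment 2, and at 0.203, 0.832 and 0.826 in experiment 3. Every ectoderm library of experiment 1 was thus high, and all others were under 1 CPM. The fitted log2 difference between experiments 1 and 2 in CBP30 NT ectoderm was 9.11 ± 0.61 (SE, n = 3 and 5 libraries; edgeR adjusted p = 6.92e-06).

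XBmRNA17876 belonged to the same class but was missing from experiment 2 only. CBP30 NT ectoderm gave 21.4, 18.4 and 16.7 CPM in experiment 1, at 0, 0.34, 0, 0.372 and 0.326 in experiment 2, and at 12.1, 11.3 and 10.8 in experiment 3. In fertilised ectoderm it stood at 12, 17.6, 17.9 and 15.8 CPM, at 0.193, 0.175 and 0.134, and at 13.9, 17.6, 16.1 and 15.2 in the same order of experiments. The libraries of experiments 1 and 3 overlapped there, and both were above all of experiment 2. Between experiments 1 and 2 the log2 difference in CBP30 NT ectoderm was 6.36 ± 0.55 (SE; edgeR adjusted p = 4.05e-05).

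Of the class highest in 1 and lowest in 3, XBmRNA63884 was present in experiment 1 alone. Its CBP30 NT libraries stood at 48.4, 63.4 and 37.2 CPM in experiment 1, at 0.707, 0.871, 0.702, 0.326 and 0.503 in experiment 2, and at 0, 0.525 and 0.413 in experiment 3. In DMSO NT ectoderm experiment 1 gave 46.4, 55.9, 34.3 and 57.6 CPM, and experiment 3 gave 0.0685, 0.11, 0.424, 0.994 and 0.478. The groups did not overlap, and the log2 difference in CBP30 NT ectoderm was 7.25 ± 0.59 (SE; edgeR adjusted p = 3.70e-05). XBmRNA4354 was instead low in experiment 3 alone, with 36.8, 34.3 and 23.7 CPM in experiment 1 of CBP30 NT ectoderm, 34.1, 27.4, 28.8, 19.7 and 24.2 in experiment 2, and 2.43, 1.96 and 0.826 in experiment 3. Its fertilised libraries of experiment 3 stood at 0.778, 0.844, 0.772 and 0.279 CPM, against 26.6 to 31.2 in experiment 1. The log2 difference in CBP30 NT ectoderm was 4.17 ± 0.32 (SE; edgeR adjusted p = 2.46e-05).

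Of the class highest in 2 and lowest in 1, XBmRNA82275 stood at 47.1, 47.6, 46.2, 33 and 42.8 CPM in experiment 2 of CBP30 NT ectoderm. Its libraries of experiment 1 stood at 0.723, 0.431 and 0.399 CPM there, and those of experiment 3 at 0.525, 1.35 and 1.45. Fertilised ectoderm showed the same split, with 38.1, 32.4 and 33.8 CPM in experiment 2 and 0.118, 0.247, 0.643 and 0.625 in experiment 1. Its log2 difference in CBP30 NT ectoderm was 6.42 ± 0.35 (SE; edgeR adjusted p = 1.68e-06). XBmRNA57489 stood at 39.8, 41.2, 34.2, 36 and 35.6 CPM in experiment 2 of CBP30 NT ectoderm, at 0.506, 0.323 and 0.114 in experiment 1, and at 1.31, 1.5 and 1.38 in experiment 3, a low level above that of experiment 1. Its log2 difference between experiments 2 and 1 was 6.94 ± 0.31 (SE; edgeR adjusted p = 6.88e-07).

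Of the class highest in 2 and lowest in 3, XBmRNA5910 was present in experiment 2 alone. In CBP30 NT ectoderm it stood at 45.5, 32.7, 48.6, 27.3 and 37.9 CPM in experiment 2, at 0.361, 0.207 and 0.285 in experiment 1, and at 0 in all 3 libraries of experiment 3. In fertilised ectoderm it stood at 30, 34.2 and 31.5 CPM in experiment 2, and of the 4 libraries of experiment 3 only 1 held any count, at 0.0406 CPM. Taking 3 counts over the 3 libraries at 0 as the limit, or 0.0603 CPM, its level in CBP30 NT ectoderm was at least 635-fold higher in experiment 2 than in experiment 3 (edgeR adjusted p = 7.62e-07). XBmRNA7962 was missing from experiment 3 alone, with 25.5, 22.6, 19.2, 15.8 and 18.3 CPM in experiment 2 of CBP30 NT ectoderm, 11.5, 10.3 and 10.3 in experiment 1, and 0, 0 and 0.138 in experiment 3. Its log2 difference between experiments 2 and 3 was 8.75 ± 0.49 (SE; edgeR adjusted p = 1.78e-06). That size rests on 2 counts in 1 library of experiment 3 and depends in part on the fit's prior count.

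Of the class highest in 3 and lowest in 1, XBmRNA44285 had no count in any of the 11 ectoderm libraries of experiment 1. Its libraries of experiment 3 stood at 10.4, 10.4, 8.37 and 11.7 CPM in fertilised ectoderm, at 12, 7.42, 9.86, 10.4 and 7.39 in DMSO NT ectoderm, and at 12.6, 12.1 and 15.1 in CBP30 NT ectoderm. In experiment 2 it was at 0.483, 0 and 0.87 CPM in fertilised ectoderm, and its highest NT library there was at 0.0465. With 3 counts over the libraries at 0 as the limit, the level in CBP30 NT ectoderm was at least 219-fold higher in experiment 3 than in experiment 1 (edgeR adjusted p = 2.71e-05). XBmRNA77410, of the same class, departed from the pattern and is described further on.

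Of the class highest in 3 and lowest in 2, XBmRNA43979 stood at 10.7, 17.3 and 9.64 CPM in experiment 3 of CBP30 NT ectoderm, at 5.28, 3.61 and 4.39 in experiment 1, and at 0, 0.0485, 0, 0 and 0 in experiment 2. Its 3 levels were again separate in fertilised ectoderm, at 15.7, 11.2, 13.3 and 9.26 CPM, at 3.35, 3.55, 4.18 and 2.61, and at 0, 0 and 0.0669, in the same order of experiments. Its log2 difference between experiments 3 and 2 in CBP30 NT ectoderm was 9.49 ± 0.49 (SE; edgeR adjusted p = 1.30e-06). That size rests on 1 count in experiment 2 and depends in part on the fit's prior count. XBmRNA5854 stood at 8.7, 8.28 and 7.61 CPM in experiment 3 of CBP30 NT ectoderm and at 0.377 CPM or less in each of the 8 libraries of experiments 1 and 2. The log2 difference between experiments 3 and 2 was 6.47 ± 0.71 (SE; edgeR adjusted p = 2.17e-04).

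**Figure D2:**
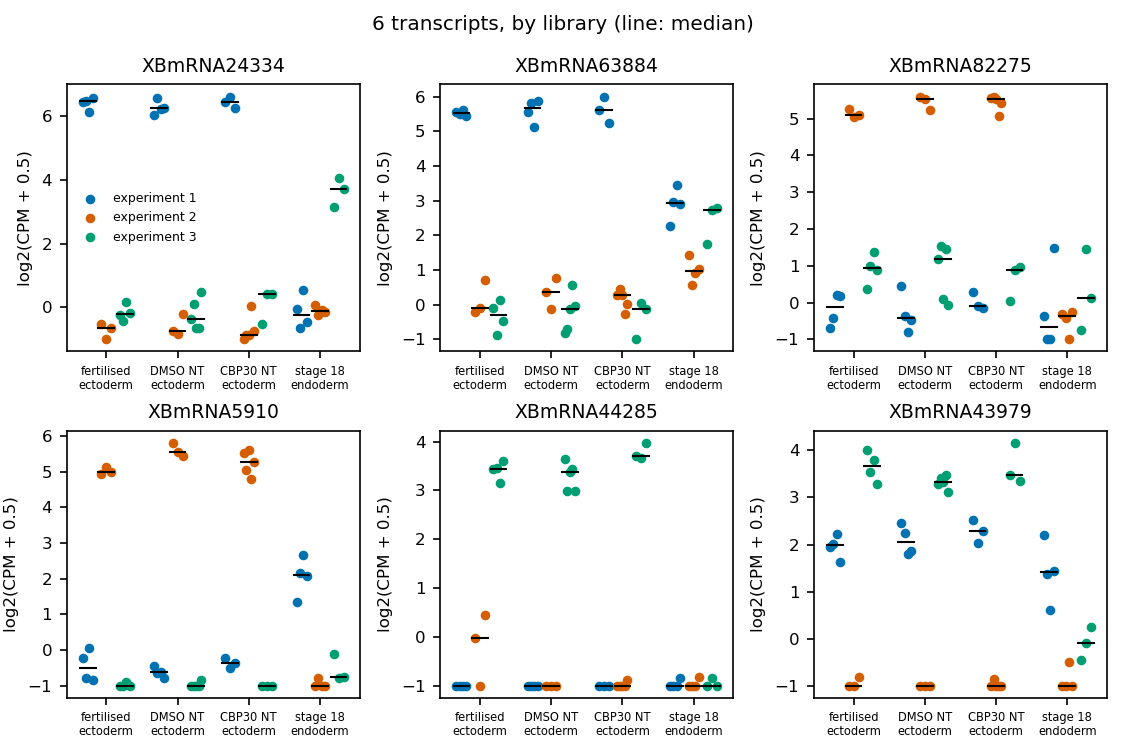
Level of 6 transcripts, 1 for each order of experiments, in every library of 4 tissue groups, on a log2(CPM + 0.5) scale (points are libraries coloured by experiment, lines are medians). In the 3 ectoderm groups each transcript keeps its high experiment, and XBmRNA24334 stands at 64.8 to 96.7 CPM in all libraries of experiment 1.

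A small number of transcripts did not keep their order in CBP30 NT ectoderm, and 4 had a difference at or below 0 there. XBmRNA69041 was the transcript called in the opposite direction, with a log2 difference of -2.45 ± 0.51 (SE; edgeR adjusted p = 0.0152). It stood at 4.7, 2.77, 5.87 and 3.77 CPM in experiment 1 of fertilised ectoderm and at 0.809, 0.698, 0.535 and 0.38 in experiment 3. In CBP30 NT ectoderm the order was turned, with 1.02, 0.366 and 0.719 CPM in experiment 1 and 3.94, 2.79 and 4.83 in experiment 3. The call was lost when either of 2 of the 11 libraries was left out.

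Within ectoderm, XBmRNA77410 reached 1 CPM in libraries of experiment 3 only. Fertilised ectoderm of experiment 3 gave 13.2, 17.6, 6.93 and 0 CPM, and DMSO NT ectoderm gave 15.4, 15.3, 16.9, 0 and 8.62. All 11 libraries of CBP30 NT ectoderm were at 0, experiment 3 included. In fertilised and in DMSO NT ectoderm, 1 library of experiment 3 held no count. Outside experiment 3, only 2 ectoderm libraries held any count, at 0.0568 and 0.0676 CPM. In endoderm, 1 DMSO library of experiment 1 stood at 3.31 CPM, and the other 10 libraries were at 0.

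XBmRNA51865 varied between libraries of the same experiment. Fertilised ectoderm gave 20.3, 6.02, 0.514 and 23.5 CPM in experiment 1 and 0.29, 9.88 and 0.201 in experiment 2, so that the experiments overlapped. In CBP30 NT ectoderm it gave 0.0723, 0.162 and 3.16 CPM in experiment 1 and 0.223, 0.097, 6.17, 0.585 and 0.279 in experiment 2, a log2 difference of -0.35 ± 1.58 (SE; edgeR adjusted p = 0.941). XBmRNA6947 likewise overlapped in CBP30 NT ectoderm, at 2.08, 1.13 and 2.34 CPM in experiment 1 and 0.197, 3.81 and 2.13 in experiment 3 (edgeR adjusted p = 0.932).

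Such variation within an experiment was uncommon in the set, which is in part set by the rule. It asked for a median of at least 3 CPM in the highest experiment of fertilised and DMSO NT ectoderm. The share among other targets was not computed. Within the highest experiment, a library under 1 CPM stood beside another at 3 CPM or more for 9 transcripts in fertilised ectoderm, 7 in DMSO NT ectoderm and 5 in CBP30 NT ectoderm, or 12 transcripts in all. Of the 14 transcripts not called in the direction of the other groups in CBP30 NT ectoderm, 6 were among these 12.

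**Figure D3:**
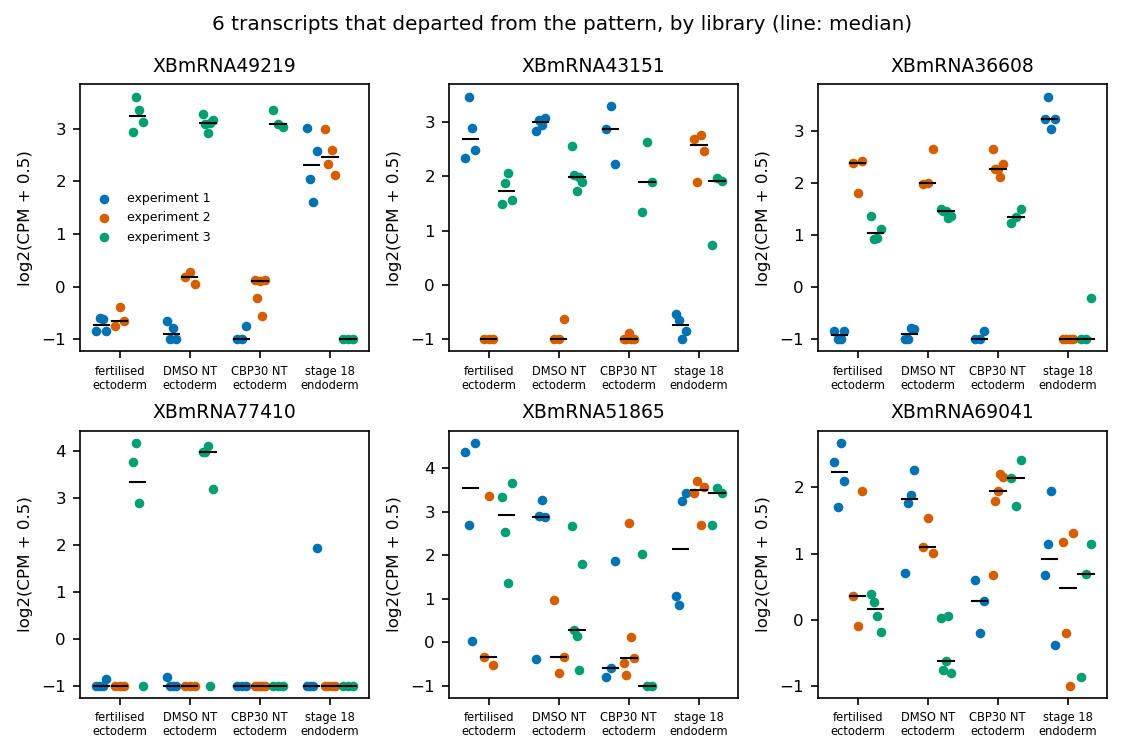
Level of 6 transcripts that departed from the common pattern, in every library of 4 tissue groups, on a log2(CPM + 0.5) scale (points are libraries coloured by experiment, lines are medians). In the upper row the highest and lowest ectoderm experiments stand in the reverse order in endoderm. In the lower row CBP30 NT ectoderm does not keep the order of the other ectoderm groups, with XBmRNA77410 at 0 in all its 11 libraries.

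Stage 18 endoderm of the same experiment numbers did not show the pattern. The labels do not say whether equal numbers mark matched embryos in both tissues. Endoderm of other numbers is compared under the other observations. The median transcript stood at 0.313 CPM in endoderm of the experiment with the highest ectoderm level and at 0.532 CPM in that with the lowest. The difference had a median of -0.14 on the log2(CPM + 0.5) scale, with quartiles of -0.66 and 0.25, and the median SD between endoderm libraries of an experiment was 0.52. It was above 0 for 53 of the 150 transcripts and at or below 0 for 97. Over the 7825 targets with the same order in fertilised and DMSO NT ectoderm the median was -0.02, and 47.3% were above 0. Below -1 were 26 of the 150, or 17.3%, against 6.47% of those targets, and above 1 were 10, or 6.67%, against 5.55%. Libraries did not overlap in the direction of the ectoderm for 10 transcripts, against 5.93% of those targets.

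Most of the set was low in endoderm throughout. Under 1 CPM in every endoderm experiment were 78 transcripts, and 35 reached 3 CPM in some experiment. Of the transcripts, 107 stood under 1 CPM in endoderm of the experiment number at which ectoderm was highest. Conversely, 27 stood at 3 CPM or more in endoderm of the experiment in which ectoderm was lowest. The lowest ectoderm experiment was the highest of the 3 in endoderm for 64 transcripts. The highest experiment was the same in both tissues for 36 transcripts, and the lowest was the same for 50, with ties counted. These counts were not tested. Shares of other targets were not computed for them, so they are not read as particular to the set.

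In the test of endoderm across the same 27668 targets, 2 of the 150 transcripts were called in the direction of the ectoderm and 5 in the opposite direction, all in pairs of experiments that include experiment 1. By pair and direction, the share of all targets called was between 0.0361% and 0.885%: 0.885% higher in 1 than 2, 0.882% higher in 2 than 1, 0.307% higher in 1 than 3, 0.448% higher in 3 than 1, and 0.0361% in either direction between 2 and 3. The counts depended on the setting. With no filter on low counts they were 10 and 25. Of all targets, 5.43% were then called higher in 1 than 2 and 3.58% lower, 3.43% higher in 1 than 3 and 2.67% lower, and 1.41% higher in 2 than 3 and 2.19% lower. With DESeq2's Wald test they were 9 and 13, where the shares of all targets in the same order were 6.63%, 5.18%, 3.63%, 3.46%, 1.87% and 1.75%. With DMSO libraries only they were 0 and 3, where those shares were 1.04%, 1.8%, 0.311%, 0.878%, 0% and 0%. With any 1 library left out, the first count was 0 to 2 and the second 4 to 5. Endoderm had 3 or 4 libraries an experiment, and a call that is missing does not show equal levels.

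XBmRNA49219 was called against the ectoderm. In ectoderm it was present in experiment 3 alone, with 9.81, 8.06 and 7.71 CPM in CBP30 NT libraries, against 0, 0 and 0.0965 in experiment 1. In endoderm of experiment 3 all 3 libraries were at 0, while experiment 1 gave 2.54 and 5.44 CPM with DMSO and 7.63 and 3.64 with CBP30. With 3 counts over the libraries at 0 as the limit, endoderm was at least 92.5-fold higher in experiment 1 than in experiment 3 (edgeR adjusted p = 0.00549). The endoderm of experiment 2 was also high, at 5.54 and 3.88 CPM with DMSO and 7.53 and 4.52 with CBP30.

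XBmRNA43151 was missing from experiment 2 in ectoderm, with 1 CBP30 NT library of 5 at 0.0441 CPM and the others at 0, against 6.79, 9.32 and 4.16 in experiment 1. In endoderm experiment 1 was low, at 0 and 0.0571 CPM with DMSO and 0.187 and 0.139 with CBP30, and experiment 2 was high, at 6.28 and 5.06 with DMSO and 5.98 and 3.21 with CBP30. Its log2 difference between experiments 1 and 2 was 8.60 ± 0.65 (SE) in CBP30 NT ectoderm and -5.76 ± 0.66 (SE) in endoderm (edgeR adjusted p = 0.00485 in endoderm). The size in ectoderm rests on 1 count in experiment 2 and depends in part on the fit's prior count. DMSO and CBP30 donors lay on the same side for both transcripts.

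XBmRNA36608 and XBmRNA44191 were also called against the ectoderm, and XBmRNA13311 was the last of the 5. XBmRNA36608 stood at 7.64 and 8.85 CPM in DMSO endoderm and 8.89 and 12.1 in CBP30 endoderm of experiment 1, where ectoderm held at most 0.0781 CPM, and at 0 in all 4 endoderm libraries of experiment 2, where CBP30 NT ectoderm stood at 3.83 to 5.79. Endoderm was at least 194-fold higher in experiment 1 than in 2 (edgeR adjusted p = 0.0212), and the call was lost when either of 2 of the 11 libraries was left out. The call of XBmRNA44191 (edgeR adjusted p = 0.0291) was lost with any of 6 of the 11 libraries left out.

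The transcripts called in the direction of the ectoderm were XBmRNA57489 and XBmRNA56032. For XBmRNA57489 endoderm stood at 1.31 and 3.17 CPM with DMSO and 3.76 and 1.24 with CBP30 in experiment 2, and the 4 libraries of experiment 1 stood at 0 or, in 1 of them, 0.114. That call (edgeR adjusted p = 0.0373) was lost with any of 8 of the 11 libraries left out. For XBmRNA56032, named after its values were seen, the adjusted p in endoderm was 0.0378.

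XBmRNA24334, present in ectoderm of experiment 1 alone, was in endoderm present in experiment 3. Its endoderm libraries stood at 15.9 and 12.7 CPM with DMSO and 8.27 with CBP30 in experiment 3. In experiment 1 they stood at 0.955 and 0.228 with DMSO and 0.468 and 0.144 with CBP30, and in experiment 2 at 0.555 CPM or less. XBmRNA5910, present in ectoderm of experiment 2 alone, stood in endoderm at 5.79 and 3.7 CPM with DMSO and 2.04 and 3.96 with CBP30 in experiment 1, and at 0.0824 or less in experiment 2. XBmRNA63884 stood at 0.972 CPM or more in every endoderm library, so that it was not switched off there in any experiment. XBmRNA44285 stood at 0.0675 CPM or less in every endoderm library.

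**Figure D4:**
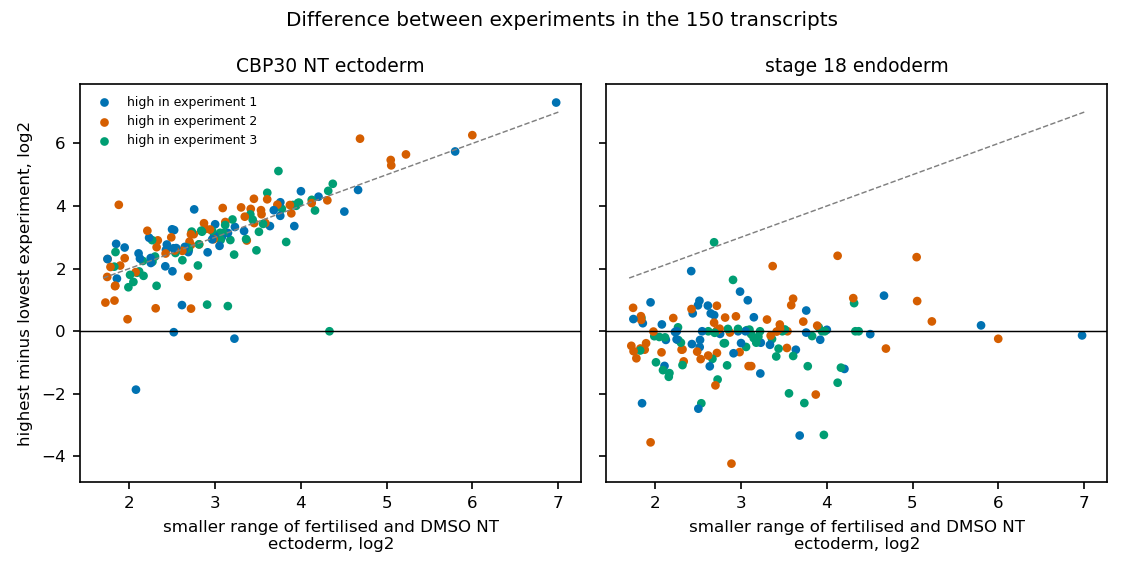
Difference between the highest and lowest ectoderm experiment of each of the 150 transcripts, in log2(CPM + 0.5) units, in CBP30 NT ectoderm (left) and stage 18 endoderm (right), against the smaller range that chose it (colour: highest experiment, dashed line: equal values). In CBP30 NT ectoderm 146 transcripts lie above 0 and most lie near the dashed line, and in endoderm 53 lie above 0.

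The difference between experiments was then compared between the tissues in 1 fit, a test chosen after the data were seen. In it 91 of the 150 transcripts had a signed difference, highest minus lowest ectoderm experiment, called higher in CBP30 NT ectoderm than in endoderm. None had one called lower in ectoderm, and 59 were not called (edgeR, adjusted p under 0.05). The sign counts here, so an opposite difference in endoderm of any size also adds to a call. For XBmRNA49219 and XBmRNA36608, both among the 91, the fitted endoderm difference was opposite in sign to that in ectoderm. Each had all endoderm libraries of 1 experiment at 0, so the size of that difference depends on the fit's prior count. By class, 15 of 28 were called for highest in 1 and lowest in 2 (3.8% of all targets), 12 of 17 for highest in 1 and lowest in 3 (3.39%), and 21 of 34 for highest in 2 and lowest in 1 (4.8%). The same held for 11 of 19 of those highest in 2 and lowest in 3 (2.28%), 21 of 30 of those highest in 3 and lowest in 1 (2.9%), and 11 of 22 of those highest in 3 and lowest in 2 (1.78%). XBmRNA57489 was not among the 91, with a tissue difference of 0.95 ± 1.79 (SE; edgeR adjusted p = 0.799) on the log2 scale. The set was chosen for a large positive difference in ectoderm of these experiment numbers, with no such limit in endoderm. A sign in favour of ectoderm, and a share above that of all targets, are thus in part set by the rule. Tissue and stage changed together here and cannot be told apart. Nor do the labels say whether equal experiment numbers mark embryos of shared parents in both tissues. Deviations of experiments from their group mean correlated by -0.10 to 0.04 between DMSO endoderm and fertilised or DMSO NT ectoderm of equal number. Between DMSO and CBP30 endoderm of equal number they correlated by only 0.21 to 0.37. A mismatch of experiments between the tissues can therefore not be told apart from tissue and stage either.

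Fertilised and NT embryos of the same experiment had like levels. In the highest experiment DMSO NT ectoderm differed from fertilised ectoderm by a median of 0.09 on the log2(CPM + 0.5) scale, with a median absolute difference of 0.24, and 144 of the 150 were within 1 unit. The median absolute difference was 0.26 in the middle experiment and 0.16 in the lowest. Over the 7825 targets with the same order it was 0.20 in the highest experiment and 0.22 in the lowest. The closeness in the highest and lowest experiment is in part set by the rule, which asked for the same limits in both groups. It lay near that of the 7825 targets. For the count of 144 and for the middle experiment no value of other targets was computed. The like levels are therefore not read as particular to the set.

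**Figure D5:**
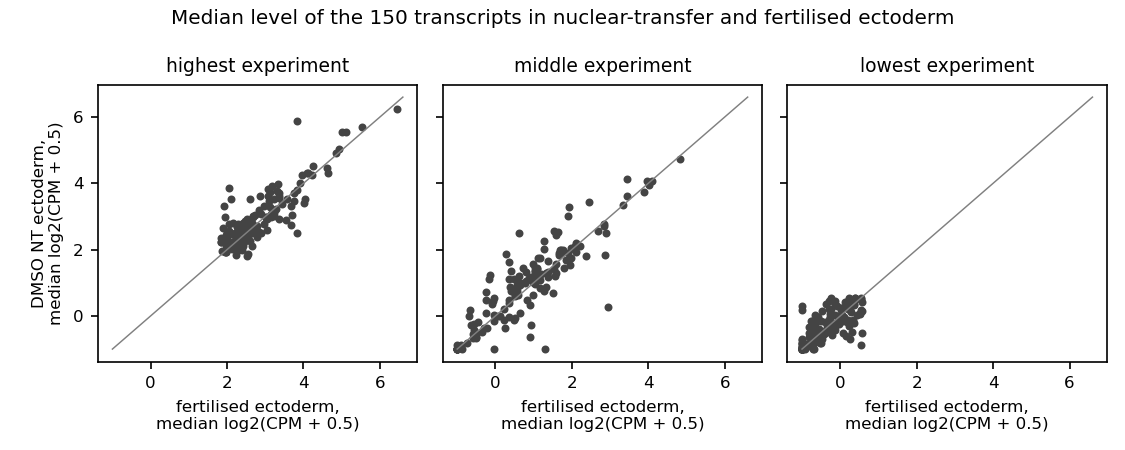
Median level of the 150 transcripts in DMSO NT ectoderm against that in fertilised ectoderm, both in log2(CPM + 0.5), in the highest, middle and lowest experiment (points are transcripts, line: equal values). Points lie along the line in all 3 panels, and 144 of the 150 are within 1 unit of it in the highest experiment.

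A comparison of DMSO NT with fertilised ectoderm uses the values that chose the transcripts, for being alike in both groups, so its counts are a description from which nothing is read. Over all experiments edgeR called 0 of the 150 transcripts, where 20.2% of all 27668 targets were called, and 1 had an unadjusted p under 0.05, against 33.1% of all targets. DESeq2's Wald test also called 0. Neither fit has a term for the experiment, so the switch between experiments counts as spread between libraries. For XBmRNA24334 the SE of the edgeR fit was 1.26, against 0.24 with the experiment as a block. With the experiment as a block, edgeR called 7 of the 150, 6 of them higher in NT ectoderm, against 27.6% of all targets.

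Between CBP30 and DMSO NT ectoderm, 0 of the 150 transcripts were called with edgeR and 1 had an unadjusted p under 0.05. This fit, too, has no term for the experiment. Of all 27668 targets 0.0% were called and 4.96% had an unadjusted p under 0.05. With the experiment as a block, 0 of the 150 and 0.00361% of all targets were called. DESeq2's Wald test called 1 of the 150, XBmRNA77410, against 0.0867% of all targets. The DMSO NT levels are among the values that chose the transcripts, and XBmRNA77410 was chosen in part for its high level there, so these counts too are a description. The median log2 change of the set was -0.12, and that of all targets -0.01.

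The A485 series offered experiments that took no part in the selection, although its experiments share only their numbers with those of the CBP30 series. Its files count 1 target per gene, and 87 of the 150 transcripts were found there by identifier, of which 18 had the same target length in both series. The 24 NT ectoderm libraries came from A-485 donors and from donors treated with A486, a control compound that the labels do not describe. The title of 1 A-485 library of experiment 3 makes it an NT library, while its tissue field says stage 18 endoderm. Its levels correlated by a median Pearson r of 0.937 with the other 23 NT libraries and of 0.724 with the 12 donor libraries, across 22714 targets, close to the 0.935 to 0.952 and 0.733 to 0.744 of the other NT libraries of experiment 3. It was kept by its title.

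Of the 87 transcripts, 78 passed the filter on mean level, and 67 of these differed between the 3 experiments (edgeR's quasi-likelihood F test, adjusted p under 0.05), where 64.1% of all 22714 targets tested did. Without the library with the contradictory field, 66 were called. The range between experiments was larger for the set than for all targets, with a median of 2.17 on the log2(CPM + 0.5) scale over the 78 and of 0.51 over all targets. A change from under 1 CPM in an experiment to at least 3 CPM in another was seen for 31 of the 87, or 35.6%. It was seen for 2.57% of all targets that passed the filter, which 9 of the 87 did not. The set was chosen in the CBP30 series by these same limits, while the other targets lie at any level. Of the 87, 13 stayed under 1 CPM in every experiment. Among the 18 of equal length 14 were called.

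XBmRNA5910 had median levels of 0, 36.0 and 8.28 CPM in experiments 1, 2 and 3 of that series, and XBmRNA63884 had 27.7, 3.94 and 0.735. XBmRNA82275 was high in experiment 3, with 0.916, 2.24 and 30.0 CPM. XBmRNA44285, of equal length in both series, had 0.0323, 0 and 10.5 CPM (edgeR adjusted p = 1.23e-11). XBmRNA77410 had a median of 0 in each experiment. Each of these but the last thus ran from under 1 CPM in an experiment to over 3 CPM in another. Target length differed between the series for XBmRNA5910, XBmRNA63884 and XBmRNA82275. The other leaders described above and found there did not meet both limits, and leaders not described went both ways. XBmRNA57489 had 8.95, 50.7 and 12.7 CPM, XBmRNA17876 had 14.3, 29.4 and 1.24, and XBmRNA43979 had 0, 0 and 1.81.

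Length and annotation of the set lay near those of other mRNA targets. Its median target length was 1965 bases, with quartiles of 1158 and 2978, against 1742 bases for mRNA targets that passed the filter, with quartiles of 980 and 2827. A gene identifier was found for 58% of the set and for 56.0% of those targets. The identifiers come from files with 1 target per gene, so no gene could occur more than 1 time among the 87. Scaled for length, the median level in fertilised ectoderm of the highest experiment was 3.98 TPM (as deposited), from 0.374 to 29.1, and 0.119 TPM in the lowest experiment. The median over the mRNA targets tested was 5.37 TPM in fertilised ectoderm, and 55 of the 150 were above it in their highest experiment. Of the 150, 6 transcripts had an identifier number next to that of another, in 3 pairs. The number expected for a set of this size was not computed. XBmRNA69037 and XBmRNA69038 were both highest in 2 and lowest in 1, and XBmRNA75783 and XBmRNA75784 were both highest in 1 and lowest in 2. XBmRNA77409 was highest in 1 and lowest in 2, while XBmRNA77410 was highest in 3 and lowest in 1.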

How the data were processed

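The deposited tables give, per the file headers, target length, effective length, expected counts (estimated reads per target, not scaled for depth) and TPM for 1 library each. The submitters' processing notes name kallisto 0.48, R 4.3.1 and DESeq2 1.40.2 with no role. The build and filters are not given in the sources used here. Target length is an other kind of value in the deposited tables, used only to describe the set. Poly(A) RNA was read in 50 bp pairs, per the labels, from 400 ng of ectoderm RNA and 300 ng of endoderm RNA. Of the fertilised samples of the A485 series, the 8 of experiments 2 and 3 were not analysed here, and no comparison uses the 4 of experiment 1. The somite series and 4 files tied to no sample were not analysed here.

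CPM was computed from expected counts. Expected counts were rounded and tested in R 4.3.3 with edgeR 4.0.16 (TMM, quasi-likelihood, two-sided, Benjamini-Hochberg over all targets with a mean CPM of at least 0.5 over the libraries of a series). SE is the log2 difference over the square root of F. Medians and figures were made with Python 3.11.15. The main test of endoderm has a term for CBP30. DESeq2 1.42.0, other filters and scalings, and leaving out libraries were alternatives. Scripts were tested on simulated data. The members, lists and tests were chosen with earlier results of these data known. The named transcripts are the leaders by smaller range in each order of experiments, those at the limit, those with the smallest and largest differences in CBP30 NT ectoderm, and those called against the ectoderm, up to 4 each. At most 2 per order and comparison are described. Lists of marker and pathway genes, and sums over the transcripts of a gene, were planned but could not be run, since the files pair identifiers with no names and 1 transcript with each gene.

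Deviations of experiments from their group mean correlated between groups across 27668 targets by 0.33 to 0.70 for each experiment number among the 3 ectoderm groups, so the numbers pair ectoderm libraries. Between DMSO endoderm and fertilised or DMSO NT ectoderm the correlation was -0.10 to 0.04. Within endoderm, between DMSO and CBP30 libraries, it was 0.21 to 0.37, so endoderm itself paired weakly by number. The experiment was therefore also fitted as a block.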

Additional observations from a re-analysis of the deposited data

Results flagged for a closer look

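Among 92 groups of 4 or 5 libraries of the 19 transcripts described, 16 had a library far from the rest. The nominal rate of such a flag is about 1 group in 20. That rate was not checked for levels near 0, so no excess is read. Most were a few reads beside libraries at or near 0. XBmRNA24334 stood at 0.532 CPM in 1 CBP30 NT library of experiment 2, XBmRNA44285 at 0.0465, XBmRNA43979 at 0.0485 and XBmRNA43151 at 0.0441 in the same group. XBmRNA5910 stood at 0.0406 in 1 fertilised and 0.0648 in 1 DMSO NT library of experiment 3. In experiment 1, XBmRNA77410 stood at 0.0568 in 1 fertilised and 0.0676 in 1 DMSO NT library, XBmRNA44191 at 0.0588 in 1 fertilised library and XBmRNA57489 at 0.934 in 1 DMSO NT library. XBmRNA4354 stood at 0.279 in 1 fertilised library of experiment 3.

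At higher levels, XBmRNA77410 was at 0 in 1 DMSO NT library of experiment 3, where the others reached 16.9 CPM. XBmRNA51865 stood at 6.17 in 1 CBP30 NT library of experiment 2 and at 0.27 in 1 DMSO NT library of experiment 1. XBmRNA69041 stood at 1.09 in 1 CBP30 NT library of experiment 2, and XBmRNA44191 at 8.45 in 1 fertilised library of experiment 3.

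The difference between experiments differed between CBP30 NT ectoderm and endoderm (edgeR, adjusted p under 0.05) for 13 of the 19 transcripts. Its log2 size was 9.16 for XBmRNA24334, 7.01 for XBmRNA63884, 4.44 for XBmRNA4354, 7.60 for XBmRNA82275 and 7.36 for XBmRNA7962. It was 6.39 for XBmRNA43979, 9.96 for XBmRNA5854, 14.28 for XBmRNA43151 and 10.31 for XBmRNA44191. The fitted values of 15.72 for XBmRNA5910, 10.59 for XBmRNA44285, 17.88 for XBmRNA36608 and 16.85 for XBmRNA49219 rest on an experiment with all libraries at 0, so their size depends on the fit's prior count. Those of XBmRNA7962, XBmRNA43979 and XBmRNA43151 depend on it in part, since only 1 CBP30 NT library of their lowest experiment held counts.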

How the results depend on the processing

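The number of transcripts called in CBP30 NT ectoderm was 135 or 136 with another filter, no filter, DESeq2's size factors or its Wald test, and 128 to 138 with a library left out. In endoderm the calls in the direction of the ectoderm numbered 10 with no filter, 9 with the Wald test and 0 with DMSO libraries only, and 0 to 2 with a library left out. Those against it numbered 25, 13, 3 and 4 to 5. The difference between tissues gave 89 to 100 calls, and 77 to 92 with a library left out. Between DMSO NT and fertilised ectoderm the calls stayed at 0 with a library left out, and the replicate block gave 7. Between CBP30 and DMSO NT ectoderm they were 0, also with the replicate block, and 1 with the Wald test. In the A485 series they were 67 to 69, 66 to 70 with a library left out and 14 for transcripts of equal length. Under other settings of the rule, 149 members remained with a pseudocount of 1, 135 after TMM scaling, 148 with medians of CPM and 132 to 145 with a library left out. The uncalled differences of XBmRNA51865 (-3.54 to 1.87) and XBmRNA6947 (-0.73 to 0.66) changed sign, to 0.1873, 0.1714 and 1.87 and to 0.0585 and 0.66, with some libraries left out. The cause was not tested. The planned sums over genes were not run. Low levels rest on few reads.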

Other observations

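Across the 150 transcripts, levels centred over experiments were compared between CBP30 NT ectoderm and endoderm for all 9 pairs of experiments. Ectoderm of experiment 1 gave a Pearson r of -0.27, -0.29 and 0.55 with endoderm of experiments 1, 2 and 3. Ectoderm of experiment 2 gave 0.17, 0.09 and -0.25, and ectoderm of experiment 3 gave 0.10, 0.20 and -0.29. Over the 35 transcripts at 3 CPM or more in some endoderm experiment, ectoderm of experiment 1 gave -0.64, -0.002 and 0.67. In these 35, ectoderm of experiment 2 gave 0.57, -0.25 and -0.42, and ectoderm of experiment 3 gave 0.13, 0.27 and -0.33. These are correlations across transcripts chosen for their range, which share libraries, and have no test.

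XBmRNA33112, chosen after its values were seen, stood at 540 CPM in 1 DMSO endoderm library of experiment 1 and at 0.974 CPM in the other, and at 1.56 CPM or less in every other endoderm library.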
